A study of Mus musculus with 25 samples.

Results

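Germline and meiosis genes, 35 in all, were described by the peaks of H3K27me3 that lie on them in mouse neural progenitor cells and fibroblasts. H3K27me3 is the mark of Polycomb silencing, written by the enzyme complex PRC2. The members were chosen by name: 14 genes of the piRNA pathway, 14 genes of meiosis and 7 other germ cell genes. This choice was made with earlier results of these data known. All 35 matched a record among the 20665 autosomal protein-coding records used as the background. For each gene the peak length was counted over its record and 5 kb on either side (the gene window), in each of 3 peak lists.

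The study asked how PRC2 target genes keep a memory of silencing. The 6 libraries of neural progenitor cells (NPC), which are wild type and were made from embryonic stem cells, came from CUT&RUN, where a nuclease tethered to the antibody cuts out the marked chromatin. These were 2 libraries each of cells given UNC1999 (2 uM) together with A395 (4 uM), both inhibitors of PRC2, of cells after their washout, and of untreated cells. Mouse embryonic fibroblasts immortalized with c-myc gave 12 H3K27me3 ChIP-seq libraries from 2 lines. In line A these were 2 libraries each of Ezh2 -/- cells (Ezh2 is the methyltransferase of PRC2), of Ezh2 -/- cells with retroviral pMSCV-Ezh2, and of wild-type cells. In line B they were 2 each of Ezh2 -/- (reversible) cells, of cells with Ezh2 restored at the endogenous gene, and of wild-type cells. Each fibroblast group thus rests on 1 immortalized line. The other 7 libraries (input, RNA polymerase II, H3K4me3 and H3K36me3 of line A) are labelled Ezh2 -/- and entered no value here.

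Germ cell genes serve the formation of eggs and sperm and are shut in somatic tissues. In the piRNA pathway, PIWI proteins loaded with short RNAs silence transposons in the germ line, with Tudor-domain proteins as scaffolds in germ granules. In meiosis, cohesins and axis proteins fold the chromosomes, programmed DNA breaks are repaired by recombination, and the synaptonemal complex zips homologous chromosomes together. In somatic mouse cells many of these genes are known to be held silent by promoter DNA methylation and by a Polycomb complex recruited by E2F6 and by the MGA/MAX dimer, which binds the E-box CACGTG.

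The 3 lists, 1 each for NPC, line A and line B, give peak positions without heights. They are not split by treatment or genotype, so inhibition, washout, Ezh2 loss and rescue were not compared, no replicate error exists for any value and no p-value is given. The NPC list held 44807 peaks over 136.9 Mb, the line A list 86235 over 276.2 Mb and the line B list 81972 over 235.7 Mb. Depth is unknown. Cell type and assay cannot be told apart between NPC and the fibroblasts. Marker genes of the labelled cells were mostly free of peaks in their own list. Of 10 neural progenitor markers, 1 had a peak in NPC, 5 in line A and 7 in line B, with all records at 31.9%, 40.2% and 40.9%. Of 10 fibroblast markers, 4 had a peak in NPC, 1 in line A and 0 in line B. None of 11 housekeeping genes had a peak in any of the 3 lists.

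More of the germline and meiosis genes carried a peak than did genes at large, in each list. In NPC 22 of 35 members had at least 1 bp of peak in the gene window (62.9%, 95% exact binomial interval 44.9 to 78.5%), against 31.9% of all records. In line A the count was 27 (77.1%, interval 59.9 to 89.6%), against 40.2% of all records. In line B it was 22 (62.9%, interval 44.9 to 78.5%), against 40.9%. The intervals cover counting error only, since genes are not replicates. Because the members were chosen with earlier results of these data known, the excess is a description and not a test. A peak in all 3 lists stood at 17 members (48.6%), against 19.5% of all records, and no peak in any of them at 5 members (14.3%), against 44.8%.

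The members are longer than most genes, with a median record of 38.9 kb against 17.5 kb for all records, and a long record has more room for a peak. Among records of at least 20 kb, 15 of 22 members had a peak in NPC, 21 in line A and 17 in line B, where 35.9%, 45.3% and 46.2% of all such records had one. Among shorter records the counts were 7, 6 and 5 of 13 members, against 28.5%, 35.9% and 36.4%. The exact intervals of the shorter members include the background in each list (25.1 to 80.8% in NPC).

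**Figure D1:**
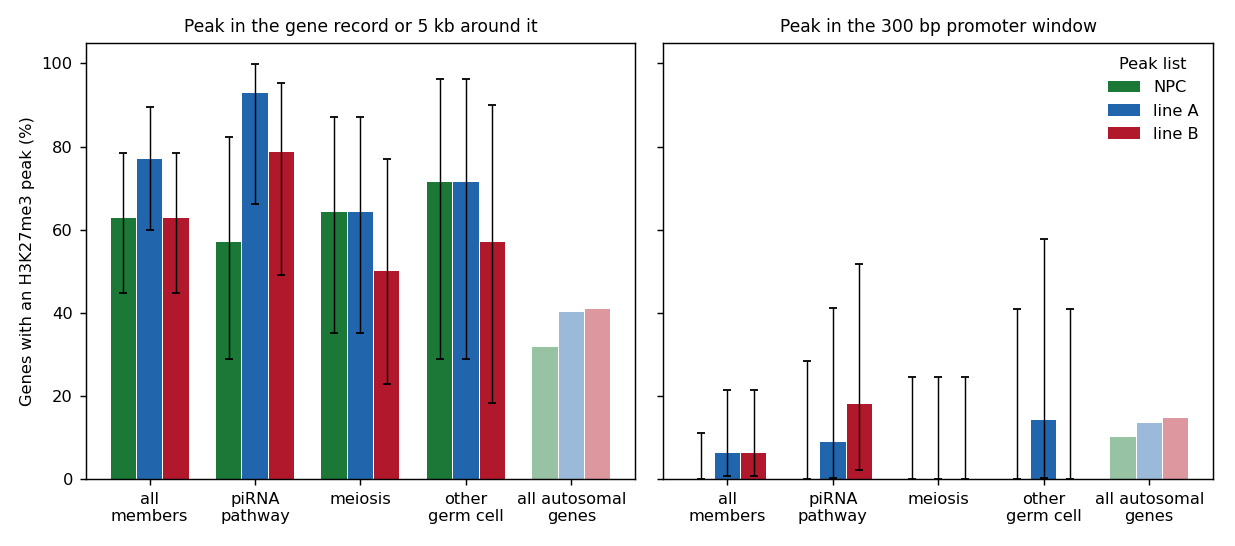
Share of genes (%) with at least 1 bp of H3K27me3 peak, in the gene record or 5 kb around it (left) and in the 300 bp promoter window (right), for the members, their 3 groups and all autosomal genes; bars are coloured by peak list and error bars are 95% exact binomial intervals for counting error. On the left the members stand above all autosomal genes in each list (62.9, 77.1 and 62.9% against 31.9, 40.2 and 40.9%), on the right they stand at 0, 6.45 and 6.45% against 10.1, 13.5 and 14.8%.

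Taken as a ratio to the background, though not in percentage points, the members stood higher by share of window length covered than by the mere presence of a peak. Peaks covered 18.2% of the summed gene windows of the members in NPC, 37.3% in line A and 20.5% in line B, where all records gave 5.38%, 10.9% and 9.28%. The median member had 6.29% of its window covered in NPC, 27.4% in line A and 9.57% in line B, while the median of all records was 0 in each. At least 10 kb was covered in 12 members in NPC, 18 in line A and 12 in line B (34.3%, 51.4%, 34.3%), while 7.80%, 14.7% and 14.0% of all records had as much. This count favours long records and was not set beside a background of like length. At least 50% of the window was covered in 5, 11 and 4 members (14.3%, 31.4% and 11.4%), against 3.91%, 9.98% and 9.71%, so in line B that share lay near the background.

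**Figure D2:**
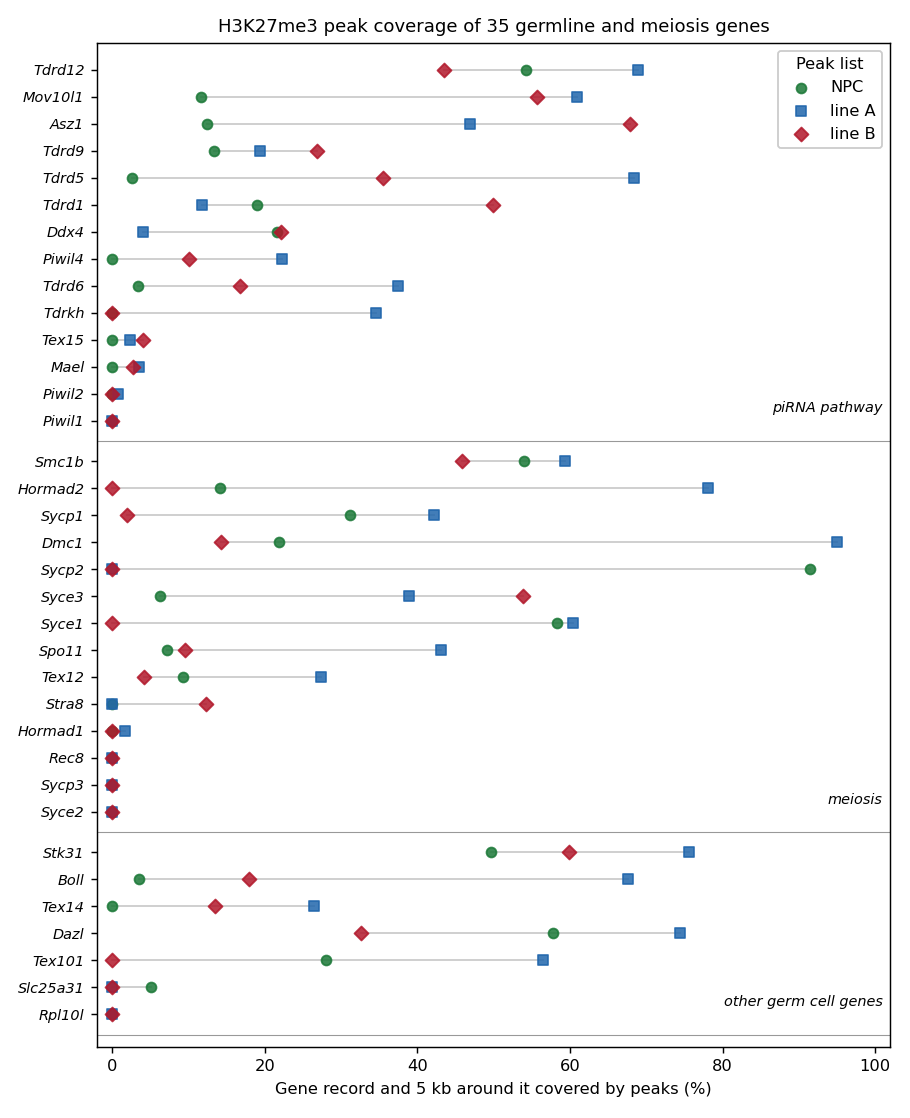
Percentage of the gene record and 5 kb around it covered by H3K27me3 peaks, for each of the 35 members (rows, by group) in NPC (circles), line A (squares) and line B (diamonds); grey lines join the lowest and highest value of a gene. Dmc1 in line A (94.99%) and Sycp2 in NPC (91.4%) stand farthest right, and Sycp2 is at 0 in both fibroblast lists.

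Among the piRNA pathway genes, 8 of 14 had a peak in NPC, 13 in line A and 11 in line B (57.1%, 92.9%, 78.6%, with all records at 31.9%, 40.2% and 40.9%). Tdrd12 (chromosome 7, 35466941 to 35537784, mouse build mm10 here and below), a Tudor protein with a helicase domain, had the most covered length of the group when the 3 lists are summed. Its peaks spanned 43.8 kb in NPC, 55.7 kb in line A and 35.1 kb in line B of an 80.8 kb window. Mov10l1 (chromosome 15, 88982891 to 89055152), the helicase that starts piRNA processing, was covered over 9.53 kb in NPC, 50.1 kb in line A and 45.8 kb in line B. Its NPC value came from 1 peak at the 3' end that ran on into the neighbouring Panx2. Asz1 (chromosome 6, 18050964 to 18109061), a germ granule protein on mitochondria, had 8.41 kb covered in NPC, 31.9 kb in line A and 46.2 kb in line B. In these genes the fibroblast lists thus covered as much as NPC or more, except Tdrd12 in line B.

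The other Tudor genes differed in which list covered them most. Tdrd5 had 1.53 kb in NPC, 40.3 kb in line A and 20.9 kb in line B, and Tdrd9, a Tudor helicase, had 14.3, 20.8 and 28.8 kb in the same order of lists. Tdrd1, a scaffold that binds PIWI proteins, had 10.2 kb in NPC, 6.31 kb in line A and 26.9 kb in line B, and its longest line A region touched only the neighbour Vwa2. Tdrd6, a protein of the chromatoid body of spermatids, had 0.874 kb in NPC (all of it outside the record), 9.94 kb in line A and 4.44 kb in line B. Tdrkh, a mitochondrial scaffold for piRNA trimming, had 10.9 kb in line A and 0 in NPC and line B. Of that length 6.50 kb lay outside its record.

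Ddx4, the mouse Vasa helicase and a standard germ cell marker (chromosome 13, 112598333 to 112652633), was covered over 13.9 kb in NPC, 2.62 kb in line A and 14.2 kb in line B. The PIWI genes differed. Piwil1 had 0 in each list, Piwil2 had 0.510 kb in line A alone, and Piwil4, whose product acts in the nucleus, had 0 kb in NPC, 10.9 kb in line A and 4.88 kb in line B. Mael, needed for transposon silencing, had 0 kb in NPC, 1.66 kb in line A and 1.29 kb in line B. Tex15, which acts in piRNA-directed DNA methylation and in meiotic recombination, had 0 kb in NPC, 2.03 kb in line A and 3.41 kb in line B.

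Among the meiosis genes, 9 of 14 had a peak in NPC, 9 in line A and 7 in line B, with all records at 31.9%, 40.2% and 40.9%. Their share of covered window length was 29.0% in NPC, 41.3% in line A and 10.3% in line B, where all records gave 5.38%, 10.9% and 9.28%. Line B thus stood near the background by this measure, while for the piRNA genes the same shares were 11.9%, 28.4% and 26.98%.

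The cohesin gene Smc1b (chromosome 15, 85064689 to 85131957) was covered at length in each list, over 41.7 kb in NPC, 45.9 kb in line A and 35.4 kb in line B, from regions that also touched Fam118a. Rec8, which encodes the meiotic kleisin subunit of cohesin, had 0 in each. Among the axis genes, Hormad2 had 14.9 kb in NPC, 82.3 kb in line A and 0 kb in line B, and Hormad1 had 0.636 kb in line A alone. Dmc1, the meiotic recombinase (chromosome 15, 79561497 to 79605159), was covered over 11.7 kb in NPC, 51.0 kb in line A and 7.65 kb in line B, which in line A is 94.99% of its window, though its joined region ran on over Fam227a. Spo11, which makes the meiotic DNA breaks, had 1.89 kb in NPC, 11.3 kb in line A and 2.51 kb in line B, there mostly outside any record. Stra8, the gatekeeper of meiotic entry, had a peak in line B alone (3.56 kb).

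The synaptonemal complex genes ranged widely. Sycp2, an axial element gene (chromosome 2, 178345295 to 178407776), was covered over 98.2% of its record in NPC (66.3 kb of the 72.5 kb window) and had 0 kb in both fibroblast lists. Its partner Sycp3 had 0 kb in each list. Sycp1, the transverse filament gene (chromosome 3, 102818499 to 102936100), had 39.8 kb in NPC, 53.7 kb in line A and 2.42 kb in line B. Of the central element genes, Syce1 had 12.0 kb in NPC, 12.4 kb in line A and 0 kb in line B, from regions that also touched Cyp2e1. Syce3 had 1.91, 11.8 and 16.3 kb, and Tex12, which overlaps regions that also touch Il18, had 1.32, 3.86 and 0.588 kb. Syce2, also of the central element, had 0 in each list.

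Of the 7 other germ cell genes, 5 had a peak in NPC, 5 in line A and 4 in line B, with all records at 31.9%, 40.2% and 40.9%, shares that lie inside the wide intervals of so few genes. Stk31, a Tudor-domain kinase gene (chromosome 6, 49395506 to 49469506), had the most covered length of all 35 members when the 3 lists are summed, with 41.7 kb in NPC, 63.5 kb in line A and 50.2 kb in line B. Dazl, the RNA-binding protein that licenses germ cell development (chromosome 17, 50279393 to 50293620), was covered over 83.5% of its record in NPC, 80.1% in line A and 49.0% in line B. Its relative Boll had 4.50 kb in NPC, 88.0 kb in line A and 23.3 kb in line B. Tex14, needed for the bridges between germ cells, had 0 kb in NPC, 42.5 kb in line A and 21.7 kb in line B, where the longest region lay on Septin4. Tex101, a germ cell surface glycoprotein, had 3.93 kb in NPC, 7.92 kb in line A and 0 kb in line B. Slc25a31, the germ cell ADP/ATP carrier, had 1.37 kb in NPC alone, and Rpl10l, a testis ribosomal protein gene of 1.02 kb, had 0 in each list.

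By list, 4 members had a peak in both fibroblast lines and not in NPC (Mael, Piwil4, Tex15 and Tex14, 11.4%, against 12.5% of all records). Peaks in NPC and line A without line B stood at Hormad2, Syce1 and Tex101 (8.57%, against 3.74%), and 0 members had NPC and line B without line A, against 2.71% of all records. Sycp2 and Slc25a31 had a peak in NPC alone (5.71%, against 5.97%), Tdrkh, Piwil2 and Hormad1 in line A alone (8.57%, against 4.55%) and Stra8 in line B alone (2.86%, against 6.28%). The 5 members with none were Piwil1, Rec8, Sycp3, Syce2 and Rpl10l. Apart from the 17 members shared by all lists and the 5 with none, these shares lay near the background or rest on 3 genes or fewer.

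The peaks of different lists often lay on the same bases. Within the gene windows of the members, 67.6% of the NPC peak length was also covered in line A, and it made up 33.0% of the line A length. The same shares over all gene windows were 44.8% and 22.1%. NPC and line B shared 41.4% of the NPC and 36.9% of the line B length in the members, against 37.0% and 21.4% over all windows. Line A and line B shared 39.4% of the line A and 72.0% of the line B length, against 48.8% and 57.2%. Shared length rises with coverage, and NPC, line A and line B covered 18.2%, 37.3% and 20.5% of the members' windows. Over all windows they covered 5.38%, 10.9% and 9.28%. The shared lengths were not adjusted for this, so whether the peaks coincide more in the members was not tested. The groups differed in shared length. NPC and line B shared 67.6% of the NPC length in the piRNA genes and 19.1% in the meiosis genes, and line A and line B shared 56.5% and 21.4% of the line A length. Line B covered 26.98% of the piRNA windows and 10.3% of the meiosis windows, and these shares were not adjusted for that either.

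Chromosome 7 differed between the lists as a whole, which touches Tdrd12, Syce1 and Tex101. A peak stood at 47.2% of chromosome 7 genes in NPC, 34.5% in line A and 24.8% in line B, the lowest share of any autosome in line B and the highest in NPC. Syce1 and Tex101 are 2 of the 3 members with peaks in NPC and line A but none in line B, and the part of the chromosome in this was not tested. In 23 of the 35 windows another protein-coding record lay at least in part, so some of the covered length may stand at a neighbour. Over the record alone the counts with a peak were 21, 27 and 22 members in NPC, line A and line B, against 22.3%, 28.4% and 28.2% of all records.

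Peaks covered the records of the members more than their flanks, and the gene starts were mostly bare. Peaks covered 19.9% of the summed records of the members in NPC, 40.5% in line A and 22.0% in line B. The shares of the 5 kb flanks were 10.48%, 22.6% and 13.3%. The piRNA genes did not show this order in NPC, with 11.6% of the records and 13.5% of the flanks covered, and in line B both were near each other at 27.1% and 26.4%. Over all records the order was the reverse, with 4.95%, 10.52% and 8.51% of the records covered and 7.42%, 12.7% and 13.0% of the flanks. A start and strand were available for 31 members and for 16457 genes in all. In the promoter window, from 250 bases before to 50 after the start, 0 of 31 members had a peak in NPC, 2 in line A and 2 in line B (0%, 6.45%, 6.45%), where all genes gave 10.1%, 13.5% and 14.8%. The exact binomial intervals ran from 0 to 11.2% in NPC and from 0.791 to 21.4% in each fibroblast line, so these shares alone cannot be told from the background. The line A peaks lay on Asz1 (300 of 300 bases) and Tex101 (231 bases), and those of line B on Tdrd1 and Tdrd5 (300 bases each). Within 2 kb of the start, 5, 11 and 9 of the 31 members had a peak (16.1%, 35.5% and 29.0%), against 17.1%, 23.4% and 24.7%.

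Among genes with a start and a peak in the gene window, 0 of 20 members in NPC, 2 of 23 in line A and 2 of 19 in line B had the promoter window covered, set beside 32.3%, 34.2% and 36.9% of all such genes. The gap was wider among heavily covered genes. Of the members with a start and at least 10 kb covered, 0 of 12 in NPC, 1 of 17 in line A and 2 of 12 in line B had a peak in the promoter window (0%, 5.88% and 16.7%). Of all genes with at least 10 kb covered, 63.8% had one in NPC, 64.3% in line A and 71.1% in line B. Among records of at least 20 kb with that much covered, the counts were 0 of 10, 1 of 15 and 2 of 12 members, against 56.9%, 55.3% and 62.0% of all such records. The exact intervals of these member shares (0 to 30.8%, 0.169 to 31.9% and 2.09 to 48.4%) lay below the background in each list, with counting error alone considered. Genes are not replicates, and the members were chosen with earlier results of these data known, so this is a description and not a test. The counts depend on how finely peaks are split. With peaks less than 3 kb apart joined, 2, 8 and 5 of the 31 members had the promoter window covered (6.45%, 25.8% and 16.1%), with all genes at 11.2%, 16.2% and 17.4%. Among genes with at least 10 kb covered the joined counts were 1 of 12, 6 of 17 and 5 of 12 members, with all such genes at 68.5%, 73.8% and 79.0%. Joined peaks were not counted among long records alone.

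Along the genes, coverage of the members dipped at the start, and farther in it exceeded that of other heavily covered genes in NPC and line A but not in line B. In the first 500 bases after the start, 0% of the bases were covered in the 12 NPC members with at least 10 kb covered, 5.88% in the 17 of line A and 17.3% in the 12 of line B. For all genes with at least 10 kb covered the values there were 62.9%, 62.7% and 69.9%. Over the 30 bins from 5 to 20 kb after the start, the same members had a mean of 56.2% covered in NPC, 69.5% in line A and 46.9% in line B, while all such genes had 40.3%, 55.1% and 54.0%. The members lay above all such genes in 24 of these bins in NPC, 23 in line A and 5 in line B. Bins past the end of a short gene are included. The selection asks for at least 10 kb covered somewhere in the gene window. In a long record this does not fix where the peaks lie. In a short record it can force the start to be covered and leave bins farther in outside the window. The profile was not limited to long records, and the members are longer than most genes, so part of both differences may come from record length.

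**Figure D3:**
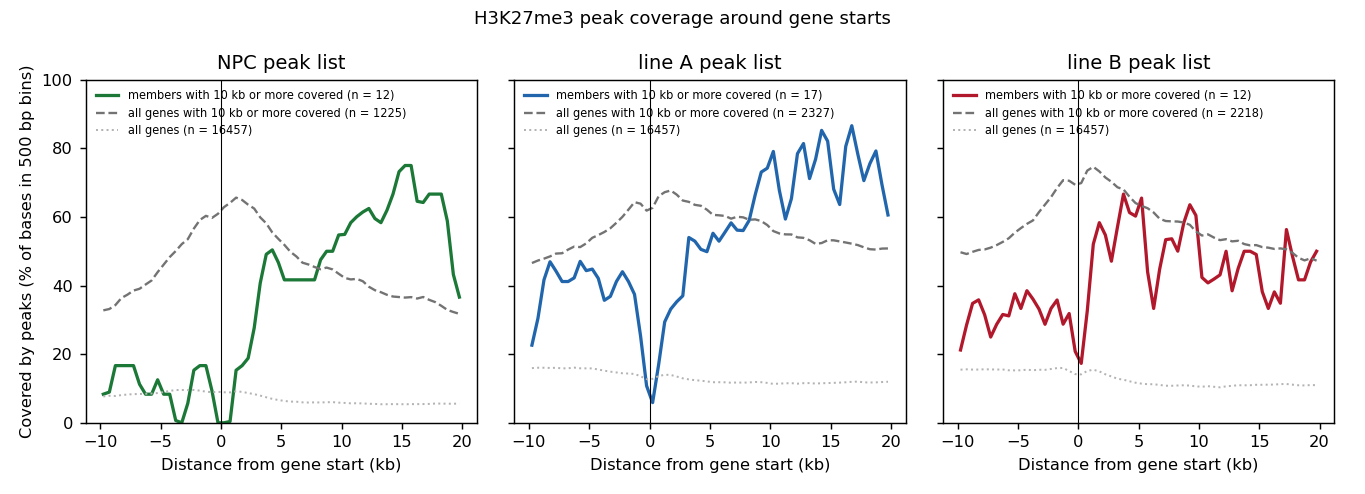
Percentage of bases covered by H3K27me3 peaks in 500 bp bins from 10 kb before to 20 kb after the gene start, in NPC, line A and line B; solid lines are members with at least 10 kb covered in the gene window, dashed lines all genes with as much covered and dotted lines all genes. The solid lines dip at the start (0, 5.88 and 17.3% in the first 500 bases) where the dashed lines are at 62.9, 62.7 and 69.9%.

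In some genes the downstream edge of the bare stretch lay at nearly the same place in each list. At Stk31, Dazl and Smc1b the upstream edge lay farther from the start in NPC than in both fibroblast lists. The upstream edges of the fibroblast lists lay close together at Stk31 and Smc1b but not at Dazl. At Stk31 the first peak after the start began 3.06 kb downstream in NPC, 3.15 kb in line A and 3.06 kb in line B, and upstream the nearest peak ended 163.1 kb away in NPC, 3.85 kb in line A and 3.84 kb in line B. At Dazl the first downstream peak began at 2.35, 2.83 and 2.38 kb in the same order of lists, and the nearest upstream peak ended 1248, 2.13 and 25.9 kb away. At Smc1b the downstream peak began at 1.08, 0.860 and 0.969 kb, and the nearest upstream peak ended 6.83, 0.299 and 0.252 kb away. There the bare stretch over the start measured 7.91 kb in NPC, 1.16 kb in line A and 1.22 kb in line B. Sycp2, covered almost throughout in NPC, was bare over 1.59 kb around its start. In other genes the downstream edge differed between lists. It lay at 54.6, 1.68 and 1.25 kb in Boll, at 67.6, 3.00 and 3.28 kb in Mov10l1, at 11.4, 0.775 and 15.9 kb in Dmc1 and at 2.31, 1.84 and 61.8 kb in Sycp1. In Tdrd12 it was far from the start in each list, at 12.3, 12.1 and 19.2 kb.

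Over all members with a start, 11 in NPC, 15 in line A and 11 in line B had a bare start and a peak within 5 kb downstream, at a median distance of 2.35, 1.84 and 1.95 kb. Of these, 4, 11 and 5 also had a peak within 5 kb upstream, and the bare stretch between the flanking peaks had a median of 3.57 kb in NPC (range 1.38 to 6.28 kb), 2.32 kb in line A (0.962 to 9.09 kb) and 1.93 kb in line B (1.22 to 6.90 kb). These counts and lengths were not computed over all genes, so whether they are particular to the members was not tested. A bare stretch is one without a called peak, and the lists give no signal level inside it. The smallest gap between any 2 peaks was 1.15 kb in the NPC list, 0.773 kb in line A and 0.709 kb in line B, so a shorter bare stretch could not appear.

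**Figure D4:**
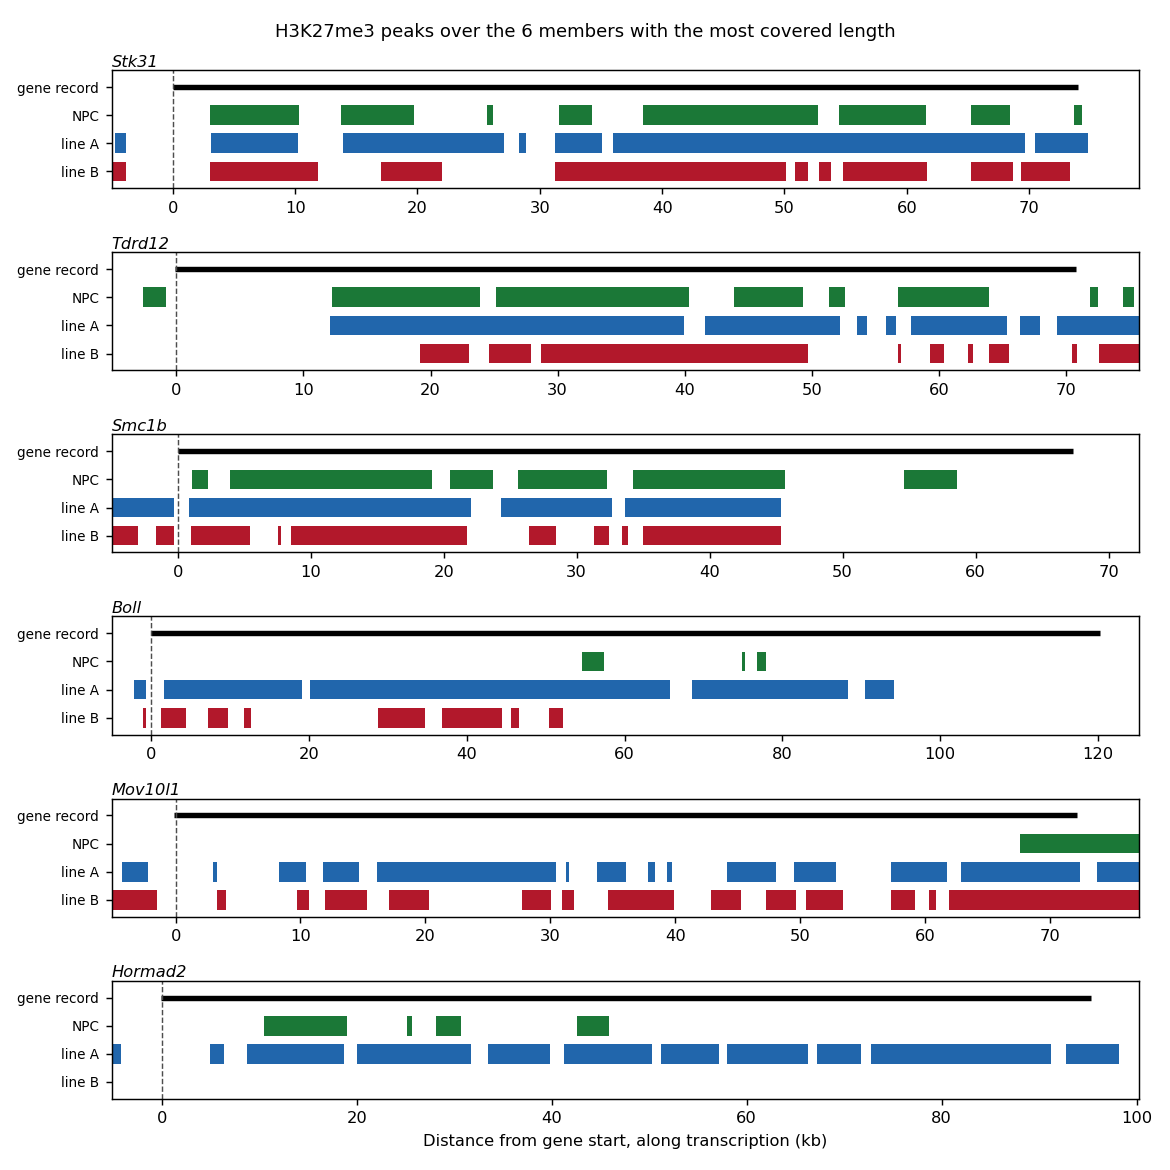
H3K27me3 peaks (coloured bars) in NPC, line A and line B over the 6 members with the most covered length and a known start, with the gene record as a black line; the horizontal axis is the distance in kb from the gene start (dashed line) along transcription, and peaks are cut at the window edge. Each of the 6 starts is free of a peak in each list, and the bodies of Stk31, Tdrd12 and Smc1b are covered over 45.1 to 83.6% of the record in the 3 lists.

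The promoters of the members had a higher median content of CpG, the dinucleotide at which DNA is methylated, than all promoters. The ratio of observed to expected CpG had a median of 0.70 in the 31 member promoters, against 0.597 in all 16457 promoters, and 21 members (67.7%) reached 0.6, against 49.8% of all. No interval was computed for this share, and the difference was not tested. Low ratios stood at Syce3 (0.218), Tdrd12 (0.341) and Sycp2 (0.363), and high ones at Tdrd5 (1.11) and Smc1b (1.08). Among records of at least 20 kb with at least 10 kb covered and a promoter ratio of 0.6 or more, 0 of 5 members in NPC, 1 of 8 in line A and 2 of 8 in line B had a peak in the promoter window. The shares of all such genes were 64.7%, 54.2% and 68.5%, so the low counts of the members also held among CpG-rich promoters, with few genes behind them.

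The E-box CACGTG, which reads alike on both strands, was found in 13 of 31 member promoters (41.9%), against 7.97% of all promoters. The E2F-type motif TCCCGC, searched on both strands (as GCGGGA on the other), was found in 14 (45.2%), against 26.4%. Both motifs stood in 7 member promoters (22.6%), against 2.82% of all. These 7 were Ddx4, Mael, Hormad1, Sycp1, Sycp3, Tex12 and Slc25a31. By group, the E-box was in 6 of 11 piRNA, 4 of 13 meiosis and 3 of 7 other promoters, and TCCCGC in 3, 8 and 3 of them. For TCCCGC these shares are 27.3%, 61.5% and 42.9%, so the piRNA promoters lay near the 26.4% of all promoters. Both motifs contain a CpG, and the median CpG ratio was higher in the members (0.70 against 0.597). The background was not limited to promoters of like CpG ratio. The motifs can share an end base, and a match describes letters, not a bound site.

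The promoter windows below, from RefSeq on GRCm38.p6 (the assembly of mm10), are those with a peak, then that of Stk31, which had none though its gene was the most covered, and then those of Sycp1 and Sycp3, which hold both motifs and were chosen after the motifs were seen. Each is written 5' to 3' along the gene with the start at base 251, and capitals mark CACGTG or TCCCGC on either strand.
Asz1 (chr6:18109012-18109311, minus strand): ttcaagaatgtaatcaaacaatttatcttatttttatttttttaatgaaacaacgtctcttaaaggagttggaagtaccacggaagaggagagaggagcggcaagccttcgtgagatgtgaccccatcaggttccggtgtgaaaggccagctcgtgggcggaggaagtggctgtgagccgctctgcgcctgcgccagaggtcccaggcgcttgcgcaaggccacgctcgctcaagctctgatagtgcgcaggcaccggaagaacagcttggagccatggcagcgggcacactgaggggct
Tdrd1 (chr19:56825959-56826258, plus strand): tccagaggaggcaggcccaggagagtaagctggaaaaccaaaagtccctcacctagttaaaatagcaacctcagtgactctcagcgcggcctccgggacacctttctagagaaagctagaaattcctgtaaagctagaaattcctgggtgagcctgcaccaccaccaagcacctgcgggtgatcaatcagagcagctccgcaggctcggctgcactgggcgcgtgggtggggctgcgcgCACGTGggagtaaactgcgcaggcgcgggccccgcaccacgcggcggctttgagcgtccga
Tdrd5 (chr1:156303299-156303598, minus strand): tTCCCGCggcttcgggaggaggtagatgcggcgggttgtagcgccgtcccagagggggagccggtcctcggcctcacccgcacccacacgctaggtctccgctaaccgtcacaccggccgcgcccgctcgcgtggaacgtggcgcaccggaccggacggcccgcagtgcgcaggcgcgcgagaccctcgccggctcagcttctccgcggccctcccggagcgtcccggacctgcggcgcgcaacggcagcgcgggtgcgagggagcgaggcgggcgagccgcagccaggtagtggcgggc
Tex101 (chr7:24672001-24672300, minus strand): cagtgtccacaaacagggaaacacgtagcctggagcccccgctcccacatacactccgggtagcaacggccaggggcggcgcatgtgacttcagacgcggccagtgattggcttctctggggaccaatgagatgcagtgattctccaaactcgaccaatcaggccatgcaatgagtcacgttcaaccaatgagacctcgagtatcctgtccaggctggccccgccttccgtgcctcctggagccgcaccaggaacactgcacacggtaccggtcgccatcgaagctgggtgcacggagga
Stk31 (chr6:49395289-49395588, plus strand): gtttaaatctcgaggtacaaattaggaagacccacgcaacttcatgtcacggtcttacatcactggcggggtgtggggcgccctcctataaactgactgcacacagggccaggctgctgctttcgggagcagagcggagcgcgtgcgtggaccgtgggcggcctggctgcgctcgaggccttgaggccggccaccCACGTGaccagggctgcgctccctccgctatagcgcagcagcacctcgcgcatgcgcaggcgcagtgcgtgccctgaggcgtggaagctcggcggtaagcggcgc
Sycp1 (chr3:102936051-102936350, minus strand): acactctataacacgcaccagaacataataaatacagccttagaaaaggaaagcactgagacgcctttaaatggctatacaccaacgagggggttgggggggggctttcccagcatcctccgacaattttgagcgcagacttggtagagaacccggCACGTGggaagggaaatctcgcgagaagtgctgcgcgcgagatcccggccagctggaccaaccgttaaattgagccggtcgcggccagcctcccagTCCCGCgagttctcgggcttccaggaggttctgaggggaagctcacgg
Sycp3 (chr10:88459337-88459636, plus strand): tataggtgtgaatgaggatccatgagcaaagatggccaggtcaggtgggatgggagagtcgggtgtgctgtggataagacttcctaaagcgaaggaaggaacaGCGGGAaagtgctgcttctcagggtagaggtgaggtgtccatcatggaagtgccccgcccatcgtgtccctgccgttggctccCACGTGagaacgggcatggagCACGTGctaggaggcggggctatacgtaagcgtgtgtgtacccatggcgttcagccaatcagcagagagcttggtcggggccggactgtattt
Of the 4 windows with a peak, Tdrd1 holds 1 E-box and Tdrd5 holds 1 TCCCGC, while Asz1 and Tex101 hold neither. Stk31 holds 1 E-box, Sycp1 1 of each, and Sycp3 holds 2 E-boxes and 1 TCCCGC.

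Germ cell genes beyond the 35 carried peaks too. Of 12 further piRNA pathway genes, 4 had a peak in the gene window in NPC, 7 in line A and 8 in line B (33.3%, 58.3%, 66.7%, with all records at 31.9%, 40.2% and 40.9%). Rnf17 (a Tudor protein, 25.04, 100.9 and 12.2 kb in NPC, line A and line B), Fkbp6 (25.97, 45.9 and 53.7 kb), Spocd1 (0, 26.8 and 15.5 kb) and Gtsf1 (6.43, 22.9 and 3.04 kb) were covered most. The exact intervals of these 3 shares include the background. Of 23 further meiosis genes, 11, 16 and 14 had a peak (47.8%, 69.6% and 60.9%), and of these the line A interval alone (47.1 to 86.8%) lay above the background. This too is a description and not a test. Here Rec114, a partner in break formation, had 28.9, 80.9 and 70.7 kb, the helicase gene Hfm1 0, 91.7 and 37.7 kb, Mei1 8.50, 39.8 and 51.0 kb and Meiob 28.0, 23.6 and 40.1 kb.

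The promoters of the further meiosis genes were less often bare by count, a difference that was not tested. Among the 20 with a start, 2 had a peak in the promoter window in NPC, 3 in line A and 4 in line B of 20, which is near the 10.1%, 13.5% and 14.8% of all genes. That of Rad21l, a meiotic cohesin gene, was covered over 300 bases in each list, those of Hfm1 and Mei1 over 300 bases in both fibroblast lines and 0 in NPC, that of Mei4 over 300 bases in NPC alone and that of Stag3 in line B alone. Rad21l, Mei4 and Stag3 are named here after their values were seen. With at least 10 kb covered and a record of at least 20 kb, 2 of 5, 3 of 6 and 4 of 8 of these genes had a covered promoter window. The shares of all such records were 56.9%, 55.3% and 62.0%. With few genes behind them, these counts lay nearer that background than those of the members did.

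Genes of earlier and later germ cell stages were also counted. Of 12 spermatid genes, 1 had a peak in NPC, 5 in line A and 4 in line B (8.33%, 41.7%, 33.3%), near or below the background, and Acr, the gene of the sperm protease acrosin, with 0, 8.44 and 1.19 kb, was covered most. Of 9 primordial germ cell genes, 3, 7 and 4 had a peak (33.3%, 77.8% and 44.4%), with all records at 31.9%, 40.2% and 40.9%. The exact interval in line A (40 to 97.2%) includes the background. Prdm1, a master regulator that is used in other lineages too, had 0, 9.74 and 70.5 kb, and its promoter window was covered over 300 bases in both fibroblast lines. Kit, the receptor for stem cell factor, had 9.66, 30.1 and 0 kb. Of 12 genes for repressors of germ cell genes, 3, 8 and 7 had a peak, with all records at 31.9%, 40.2% and 40.9%. None of the 12 had one in the promoter window in NPC, line A or line B (exact interval 0 to 26.5%, with all genes at 10.1%, 13.5% and 14.8%). Peaks covered 0.807%, 3.78% and 4.79% of their windows, with all records at 5.38%, 10.9% and 9.28%. Mga, which pairs with Max at E-boxes, had the most, with 3.29, 11.8 and 17.6 kb.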

How the data were processed

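The deposited files are 3 lists of peak positions with no other value: per the file contents each line holds a chromosome, a start and an end, so the only unit is a position in bp. Among the tools in the submitters' processing notes are Bowtie2 (2.2.9) and MACS2 (2.1.1.20160309), and the notes list mm10 as well as dm6 as builds. The peak threshold and the pooling of libraries are steps that the sources used here leave out. The authors named each fibroblast list after both its wild-type and its Ezh2 -/- libraries, and the NPC list carries no treatment.

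Starts were read as 0-based. Covered length was computed in Python 3.11.15 (pandas 2.3.3, numpy 2.4.6, scipy 1.17.1) for 20665 autosomal genes marked protein-coding in the RefSeq table (GRCm38.p6), and the code was tested on simulated peaks. All lists lack sex chromosomes. Of the 136 symbols in the gene lists 134 matched. Gene starts are the outermost of those in a RefSeq promoter table. The members, lists and rules were chosen with earlier results of these data known. All members are accounted for, and at most 4 genes of each further list are named by covered length. Outside that rule, Rad21l, Mei4 and Stag3 were named after their values were seen. No test was made, because no list is split by sample.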

Additional observations from a re-analysis of the deposited data

How the results depend on the processing

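The counts of members with a peak were recomputed under 11 alternatives and those in the promoter window under 7, without chromosome 7 and all promoter alternatives being chosen after seeing the data. Of 131 such recomputed counts, 117 stayed within 1.5 times the value reported. Of 497 recomputed covered lengths of single members, 368 changed and 57 moved by over 1.5 times, 17 of these with peaks at or above the median width alone and 15 over the record alone. Within 2 kb of the start, the counts for NPC, line A and line B were 5, 11 and 9 of 31 members, with all genes at 17.1%, 23.4% and 24.7%. They were 3, 4 and 6 of 11 piRNA members and 2, 5 and 2 of 13 meiosis members. A peak there in all 3 lists stood at 3 members, a count that was not made over all genes. The 2 kb window is shorter by construction and 4 members have no start in the table. With peaks less than 3 kb apart joined, 2, 8 and 5 members had the promoter window covered, with all genes at 11.2%, 16.2% and 17.4%, since joining fills the bare stretches over some starts. Without chromosome 7 the line A promoter count was 1, Tex101 being left out. With the 44807 widest peaks of each list, 22, 24 and 20 of 35 members had a peak (62.9%, 68.6% and 57.1%), against 31.9%, 33.4% and 34.8% of all records. No paired analysis was possible because the lists hold no value per library, and no library could be left out for the same reason. Depth is unknown, so the absence of a peak gives no limit on the signal.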
